A study of Mus musculus with 8 samples.

Results

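The synaptic vesicle fusion genes described here are 9 genes chosen by name, Syp, Sv2a, Syn1, Stx1a, Snap25, Vamp2, Cplx1, Cplx2 and Rab3a. Earlier results of these data were known when they were chosen. Counts of them beside the share of all features are therefore a description and not a test of the set. Of the 25697 probes on the array, 11 carried one of these names, with 2 probes each for Sv2a and Syn1 and 1 for each of the others. The study hybridised RNA of 8 mouse prostate samples, 1 sample per array, to Illumina expression beadchips, on which the brightness of a probe reports its transcript, and every animal was of the C57Bl/6 strain. Wild type mice gave non-tumour prostate (n = 2) and untreated TRAMP mice gave tumours (n = 2), all at 30 weeks of age. The other tumours were collected at 24 weeks, either from TRAMP mice given sodium chromoglycate since they were 8 weeks old (n = 3) or from a TRAMP mouse of the KitW-sh genotype (n = 1). Sodium chromoglycate, or cromolyn, stabilises mast cells, and KitW-sh mice lack them. All 3 tumour groups carried the TRAMP transgene, which drives viral T antigens from a probasin promoter in prostate epithelium, and the wild type mice did not. The untreated tumours were the older ones, so that treatment or genotype and age cannot be told apart in any comparison of the 24-week tumours with them. Comparisons of the 24-week tumours with wild type prostate join age, transgene, tumour and treatment or genotype, which cannot be told apart either. The labels do not say whether replicates were separate animals, so the p-values reflect only how far these arrays differed within groups, which may be technical variation.

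Neurons and endocrine cells store transmitters and hormones in vesicles and release them when a vesicle fuses with the cell membrane. Fusion is driven by SNARE proteins, of which VAMP2 sits on the vesicle and syntaxin 1A and SNAP25 on the cell membrane. Complexins hold the assembled SNARE bundle until calcium enters, RAB3A tethers vesicles near their release site, synapsin 1 clusters them in a reserve pool, and SV2A and synaptophysin are proteins of the vesicle membrane itself. Synaptophysin is a routine stain for neuroendocrine cells in prostate pathology, and neuroendocrine tumours are known to arise in TRAMP mice. Most other cells fuse vesicles with relatives of these proteins, such as SNAP23, VAMP3, VAMP8 and syntaxins 3 and 4.

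In outline, 8 of the 9 genes were brightest in the 24-week tumours, intermediate in wild type prostate and dimmest in untreated TRAMP tumours, and Snap25 was not above background on any array. Values below are the deposited intensities of single arrays on a linear scale, unless a log2 level or log2 difference is named. Intensities under 216 were taken as not above background, and each sequence of 8 intensities keeps the order wild type, untreated TRAMP, cromolyn, KitW-sh. Intensity depends on the probe as well as on the transcript, so that levels are compared between arrays and not between genes. In whole tissue, fewer cells of a type and less RNA per cell cannot be told apart.

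**Figure D1:**
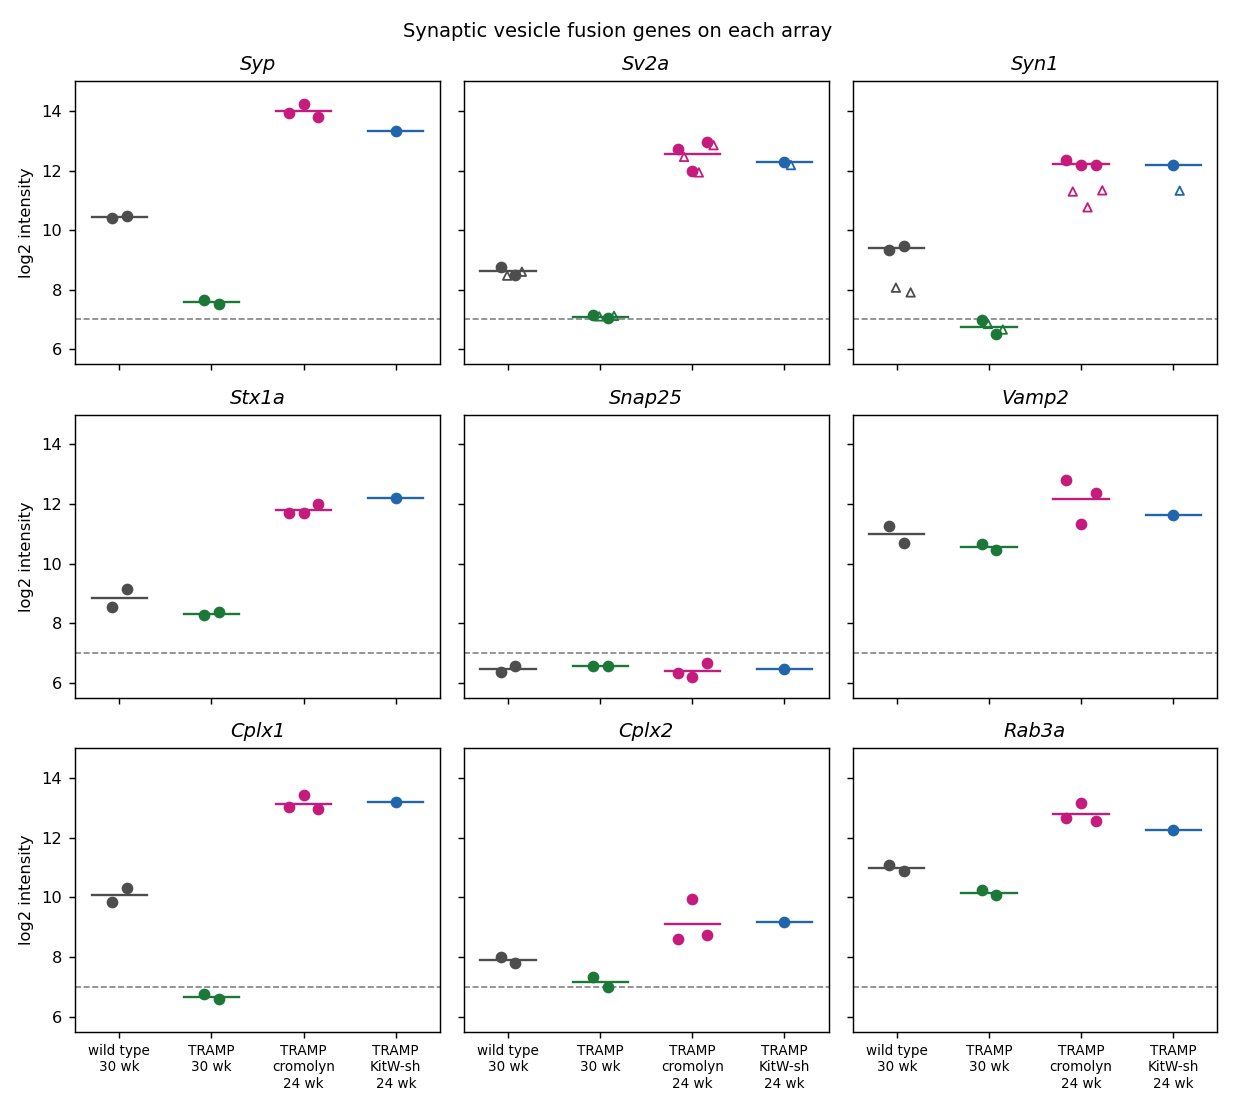
Log2 intensity of the 9 synaptic vesicle fusion genes (vertical axis) on each array of the 4 groups (horizontal axis). Filled circles are the probe that stands for the gene, open triangles the other probe of Sv2a and Syn1, bars the group means, and the dashed line the background limit of 7.01. Snap25 stays below the limit on all 8 arrays, and Cplx1 and Syn1 lie below it on both untreated TRAMP arrays.

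Of the vesicle proteins, Syp, which encodes synaptophysin, gave 1447.9 and 1497.7 in wild type prostate, 289.9 and 270.5 in untreated TRAMP, 15776.9, 19358.9 and 14288 with cromolyn, and 10464.7 in the KitW-sh tumour. The 4 groups did not overlap, and the untreated arrays were the dimmest. Sv2a, a vesicle glycoprotein of the transporter family, gave 519 and 447.1 in wild type, 229.6 and 220.3 in untreated TRAMP, 6868.4, 4147.6 and 7944.7 with cromolyn, and 5023.3 with KitW-sh. Its untreated values lay just above the background limit, and the KitW-sh value fell within the cromolyn range. The other Sv2a probe read 443.5 and 477.4, 225.7 and 227.5, 5715.1, 4006.6 and 7467.7, and 4734.1, the same order of groups. Syn1, the synapsin that ties vesicles into a reserve pool, gave 734.9 and 796.6 in wild type, 213.1 and 178.7 in untreated TRAMP, 5308.6, 4711.1 and 4706.2 with cromolyn, and 4785.4 with KitW-sh. Both untreated values were under the background limit. The other Syn1 probe was dimmer throughout, at 356.8 and 328.6, 203.5 and 189.3, 2599.8, 1829.4 and 2670.8, and 2653.6, and was also under the limit on both untreated arrays.

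Of the SNARE genes, Stx1a, which encodes the membrane SNARE syntaxin 1A, gave 463.3 and 661.4 in wild type, 395.8 and 423.3 in untreated TRAMP, 3390.4, 3437.4 and 4208.3 with cromolyn, and 4771.8 with KitW-sh. Wild type and untreated arrays lay close together, and all 24-week tumours were far above them. Vamp2, the vesicle SNARE, gave 2565.9 and 1763.2 in wild type, 1705.4 and 1511.6 in untreated TRAMP, 7224.6, 2653.6 and 5433.2 with cromolyn, and 3283.4 with KitW-sh. The second cromolyn array was close to the brighter wild type array, and the cromolyn values spread more widely (SD 0.76 on the log2 scale, n = 3) than those of Syp (SD 0.23). Snap25, the other membrane SNARE, read between 161.9 and 189.7 over the 8 arrays, with no array above background, so it was not tested. Values under the limit set no level for Snap25.

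Of the regulators, Cplx1, a complexin, gave 1009.6 and 1356.3 in wild type, 195 and 185.1 in untreated TRAMP, 8442.4, 11118 and 8170 with cromolyn, and 9415.8 with KitW-sh. It was under the background limit on both untreated arrays and above it on the other 6. Cplx2, the second complexin, was dimmer, at 346.4 and 312 in wild type, 250 and 215.1 in untreated TRAMP, 477.1, 1078.2 and 518.9 with cromolyn, and 666.4 with KitW-sh. Its highest value was that of the second cromolyn array, the same array on which Vamp2 was lowest among the cromolyn tumours. Rab3a, the small GTPase that tethers vesicles, gave 2247.9 and 1976.5 in wild type, 1297.4 and 1177.1 in untreated TRAMP, 6647.5, 9312 and 6071 with cromolyn, and 4978.4 with KitW-sh, with no overlap between the groups.

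In the mouse assembly GRCm38.p6, Syp lies at chrX:7638580-7653256, Syn1 at chrX:20860511-20920918, Sv2a at chr3:96181227-96195183, Stx1a at chr5:135023482-135051100 and Cplx1 at chr5:108518554-108550027. Vamp2 lies at chr11:69088528-69092381, Rab3a at chr8:70754703-70758608, Cplx2 at chr13:54301964-54383923 and Snap25 at chr2:136713439-136782428. No 2 of the genes are neighbours, and the pairs on chromosome X and on chromosome 5 lie far apart. The positions of the probes within their transcripts were not used here.

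The promoters of Cplx1, Syp, Syn1 and Sv2a are shown here, picked as the 4 genes with the largest rises in cromolyn tumours. Each sequence is the 250 bases before the RefSeq start of the gene in GRCm38.p6, read 5′ to 3′ on the gene's strand. Capitals mark matches to 3 motifs searched on both strands, TTCAGCACC (the left arm of RE1, the element bound by the repressor REST), TGACGTCA (the cyclic AMP response element, CRE) and CAGCTG (an E-box). In 32851 promoter windows of this length, 0.301% held the RE1 arm, 1.55% the CRE and 13.0% the E-box.
Syp, chrX:7638330-7638579, plus strand, no match: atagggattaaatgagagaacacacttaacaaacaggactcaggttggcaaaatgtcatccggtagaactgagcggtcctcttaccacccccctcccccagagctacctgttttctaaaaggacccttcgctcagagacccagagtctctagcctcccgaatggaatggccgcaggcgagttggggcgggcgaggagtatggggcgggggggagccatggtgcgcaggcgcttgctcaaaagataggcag
Cplx1, chr5:108550028-108550277, minus strand, 1 E-box: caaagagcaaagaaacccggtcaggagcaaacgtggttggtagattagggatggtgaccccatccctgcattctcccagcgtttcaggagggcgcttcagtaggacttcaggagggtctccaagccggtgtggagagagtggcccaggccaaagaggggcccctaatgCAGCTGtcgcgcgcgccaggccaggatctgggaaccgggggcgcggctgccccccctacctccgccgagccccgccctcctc
Syn1, chrX:20920919-20921168, minus strand, 1 RE1 arm and 1 CRE: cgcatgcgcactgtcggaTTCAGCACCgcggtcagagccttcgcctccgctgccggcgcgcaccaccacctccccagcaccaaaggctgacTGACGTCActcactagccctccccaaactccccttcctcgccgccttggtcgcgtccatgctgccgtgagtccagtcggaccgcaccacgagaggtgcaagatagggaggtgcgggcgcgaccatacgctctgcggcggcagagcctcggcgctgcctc
Sv2a, chr3:96180977-96181226, plus strand, 1 E-box: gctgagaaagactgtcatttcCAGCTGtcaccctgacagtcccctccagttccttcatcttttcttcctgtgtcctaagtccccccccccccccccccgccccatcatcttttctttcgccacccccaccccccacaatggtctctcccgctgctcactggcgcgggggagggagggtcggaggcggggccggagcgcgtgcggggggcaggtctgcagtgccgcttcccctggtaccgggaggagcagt

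Of the 9 genes, 7 had a promoter entry, with 8 windows because Rab3a has 2 starts, and Snap25 and Vamp2 had none. The E-box letters were found for 5 of the 7 genes, Cplx1, Cplx2, Rab3a, Stx1a and Sv2a, and the other motifs for Syn1 alone. In Syn1 the RE1 arm lay 224 to 232 bases and the CRE 152 to 159 bases before the start, at chrX:20921142-20921150 and chrX:20921070-20921077. The Syp window held none of the 3. A match of letters is a description and not a binding site.

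Untreated TRAMP tumours against wild type prostate ask how the genes differ between tumour and non-tumour tissue at 30 weeks. Syp was 7.20-fold lower in the tumours, Cplx1 at least 8.40-fold, Syn1 at least 5.26-fold and Sv2a 2.87-fold lower. These 4 of the 9 genes fell, and 0 rose, while 2.88% of all 13072 genes and unnamed probes tested fell and 3.73% rose. "At least" is used where a gene was above background on no array of the dimmer group, and the fold is then taken against the background limit, or the gene's own value where that is higher. On the log2 scale the differences were -2.85 ± 0.20 (SE) for Syp and -1.52 ± 0.32 for Sv2a, and the bounds were 3.07 for the fall of Cplx1 and 2.40 for that of Syn1. The adjusted p-values in limma were 0.00106 for Syp, 0.0431 for Sv2a, 0.00108 for Cplx1 and 0.00139 for Syn1.

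The remaining 4 tested genes did not pass the threshold of 0.05. Rab3a differed by -0.82 ± 0.25 (adjusted p = 0.114, limma), Cplx2 by -0.75 ± 0.45 (0.407), Stx1a by -0.53 ± 0.25 (0.287) and Vamp2 by -0.43 ± 0.47 (0.683). The median difference of the 8 genes was -1.17, beside -0.01 over all features tested. The Sv2a call was the least firm. Its adjusted p was 0.161 and 0.128 without the first and the second wild type array, 0.193 and 0.248 without the first and the second untreated array, 0.0618 without the first cromolyn array, and 0.0944 without background correction. Rab3a passed, at 0.0382, when the second cromolyn array was left out of the pooled spread.

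Several tissue components moved with this comparison, and their part in the lower fusion genes was not tested. Of 10 peripheral neuron markers, 9 had a probe, of which 8 were above background in each wild type array and 3 in each untreated array. Th and Dbh, enzymes of noradrenaline synthesis, together with Phox2a, Chrna3 and Nefm, were above background in wild type prostate and on neither untreated array. The summed intensity of these neuron markers was 4636 to 5177 in wild type and 1788 to 1998 in untreated tumours. Skeletal muscle markers summed to 45425 to 59968 and to 13288 to 19205 in the same groups, and adipocyte markers to 5468 to 10823 and to 736 to 1048. In limma only 1 of the 8 tested neuron markers was called lower and 7 were not called. Of the skeletal muscle markers 5 of 6 were called lower and of the adipocyte markers 3 of 4, where 2.88% of all features fell. Acta1 alone gave 18191.7 and 12236.8 on the untreated arrays, most of the skeletal muscle sum. The median log2 difference of the skeletal muscle markers was -4.31, or -4.02 with genes at their bounds. Each sum includes the background of its probes.

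**Figure D2:**
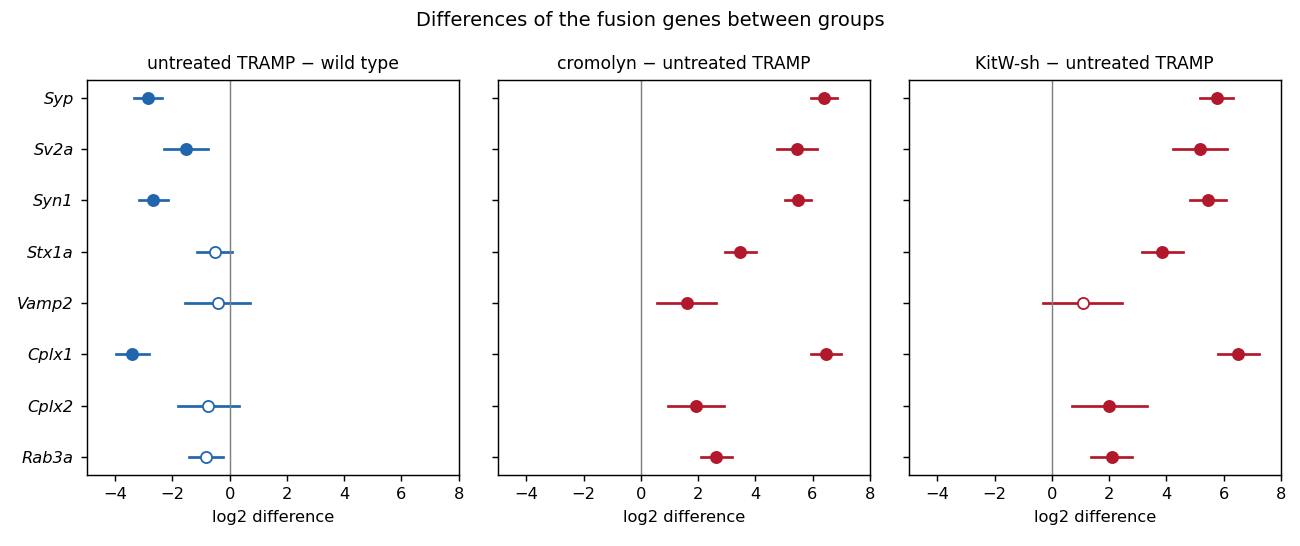
Log2 difference (horizontal axis) of each tested fusion gene (vertical axis) in 3 comparisons, with the 95% confidence interval from limma as a line. Filled points passed an adjusted p of 0.05, and red and blue mark higher and lower. Cplx1 and Syn1 are drawn at their fitted values, although they were not above background in untreated TRAMP. All 8 points lie left of 0 in the first panel and right of 0 in the other 2, and all 3 panels share the untreated arrays.

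Cromolyn-treated against untreated TRAMP tumours ask how the genes differ between 24-week tumours with the drug and 30-week tumours without it. Syp was 84.6-fold higher with cromolyn, Cplx1 at least 70.4-fold, Sv2a 43.7-fold and Syn1 at least 37.4-fold. Stx1a was 11.1-fold, Rab3a 6.21-fold, Cplx2 3.82-fold and Vamp2 3.04-fold higher. Thus 8 of the 9 genes rose and 0 fell, where 18.8% of all features rose and 18.0% fell.

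On the log2 scale the rises were 6.40 ± 0.18 for Syp and 5.45 ± 0.30 for Sv2a, and at least 6.14 for Cplx1 and 5.23 for Syn1, which were at background in untreated TRAMP. The adjusted p-values in limma were 1.67e-05 for Syp, 6.63e-05 for Sv2a and 2.00e-05 for both Cplx1 and Syn1. Stx1a rose by 3.47 ± 0.23 (0.000123), Rab3a by 2.63 ± 0.23 (0.000312), Cplx2 by 1.94 ± 0.41 (0.0110) and Vamp2 by 1.60 ± 0.43 (0.0275). The median of the 8 differences was 4.46, or 4.35 with Cplx1 and Syn1 at their bounds, beside 0.05 over all features. The list thus split into 4 genes that rose by more than 5 on the log2 scale and 4 that rose by 3.47 or less.

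The calls of the lowest pair rested on single arrays. Without the first and the second untreated array the adjusted p of Cplx2 was 0.0525 and 0.0828, and that of Vamp2 0.110 and 0.142. Vamp2 also missed the threshold without the first (0.0535) or the third (0.0771) cromolyn array. The other 6 genes passed whichever array was left out.

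The KitW-sh tumour, also of 24 weeks and of a genotype that lacks mast cells, was compared with the same 30-week untreated tumours. Its single array was assumed to vary like the other groups. Cplx1 was at least 72.5-fold higher, Syp 54.0-fold, Syn1 at least 36.5-fold, Sv2a 36.0-fold and Stx1a 14.6-fold higher. Rab3a was 4.26-fold and Cplx2 4.02-fold higher. These 7 of the 9 genes rose and 0 fell, where 11.4% of all features rose and 11.2% fell. On the log2 scale Syp rose by 5.76 ± 0.25 and Sv2a by 5.17 ± 0.40, and Cplx1 by at least 6.18 and Syn1 by at least 5.19, with adjusted p-values in limma of 0.000664 for Sv2a and 0.000153 for the other 3. Stx1a rose by 3.87 ± 0.31 (0.000692), Rab3a by 2.09 ± 0.30 (0.00506) and Cplx2 by 2.01 ± 0.55 (0.0426). Vamp2 differed by 1.07 ± 0.58, with a 95% interval of -0.32 to 2.46, and did not pass (0.241).

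The median of the 8 differences was 4.52, beside 0.02 over all features. Cplx2 missed the threshold in 9 of 17 alternatives, with an adjusted p between 0.0512 and 0.160 there. Left-out arrays among these were both wild type arrays (0.0699 and 0.0694), both untreated arrays (0.113 and 0.160) and the third cromolyn array (0.0567). This comparison and the cromolyn comparison use the same 2 untreated arrays, so likeness between them is partly shared control.

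Against each other, the KitW-sh tumour and the cromolyn tumours differed in 0 of the 8 tested genes in limma, where 0.0229% of all features were called higher and 0% lower. At an unadjusted p under 0.05 it was 1 gene, Syp, which was lower in the KitW-sh tumour by a log2 difference of -0.65 (95% interval -1.20 to -0.09, unadjusted p = 0.0288 and adjusted p = 0.851 in limma). For Cplx1 the difference was 0.04, with an interval of -0.63 to 0.72, and for Syn1 -0.04, with an interval of -0.62 to 0.55. The intervals were wider for Cplx2, from -1.16 to 1.31, and Vamp2, from -1.84 to 0.78, which leaves room for a difference of more than 2-fold in either direction for Cplx2. Stx1a was higher in the KitW-sh tumour than in any cromolyn tumour, by 0.39 (interval -0.30 to 1.08), and Rab3a lower than in any, by -0.54 (-1.23 to 0.14), and neither passed. Sv2a lay within the cromolyn range, with a difference of -0.28 (-1.18 to 0.61).

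Against wild type prostate, 6 of the 9 genes were higher with cromolyn, where 22.9% of all features rose and 22.8% fell. The log2 differences were 3.93 ± 0.30 for Sv2a, 3.55 ± 0.18 for Syp, 3.07 ± 0.22 for Cplx1, 2.94 ± 0.23 for Stx1a, 2.83 ± 0.19 for Syn1 and 1.82 ± 0.23 for Rab3a, with adjusted p-values in limma from 4.55e-05 to 0.000967. Cplx2 differed by 1.19 ± 0.41 (0.0522) and Vamp2 by 1.18 ± 0.43 (0.0648). Vamp2 passed, at 0.00384, without the second cromolyn array, and Cplx2 passed without the first (0.0361) or the second (0.0202). The same 6 genes were higher in the KitW-sh tumour, where 15.8% of all features rose and 15.2% fell, with differences from 3.65 ± 0.40 for Sv2a to 1.28 ± 0.30 for Rab3a. Rab3a there had an adjusted p of 0.0209, and of 0.0741 without the second wild type array. Cplx2 (1.26 ± 0.55, 0.129) and Vamp2 (0.65 ± 0.58, 0.445) did not pass, although Cplx2 reached 0.00979 without the second cromolyn array.

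The order of the groups was therefore untreated TRAMP, wild type, then the 24-week tumours, for the group means of all 8 genes. The step from untreated TRAMP to wild type passed the test for Syp, Cplx1, Syn1 and Sv2a only. The step from wild type to the 24-week groups passed for all but Cplx2 and Vamp2. The 2 kinds of 24-week tumour were neighbours in this order. None of the genes passed the adjusted threshold between them, in a comparison that rests on a single KitW-sh array.

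Other genes of the release pathway were read from 5 lists. Of 11 relatives of the SNARE proteins (10 tested), 2 rose and 5 fell with cromolyn against untreated TRAMP, with a median of -0.23. Of 19 genes for priming and disassembly of the SNARE bundle (14 tested), 4 rose and 3 fell, with a median of 0.38. Of 20 genes of the Rab3 cycle and the active zone, where vesicles dock (14 tested), 4 rose and 3 fell, with a median of 0.37, or 0.25 with genes at their bound. Of 14 further genes of the vesicle membrane and the vesicle pool (10 tested), 3 rose and 2 fell, with a median of 1.18, and of 7 genes for vesicle recycling (6 tested), 3 rose and 0 fell, with a median of 1.08, or 0.95 at the bounds. The median over all features was 0.05, and 18.8% of them rose and 18.0% fell, which is close to the share of several lists, such as the priming genes. The split of these lists differs from that of the 8 fusion genes, all of which rose, a difference that was not tested. For the KitW-sh tumour against untreated TRAMP the same 5 lists, in this order, had 0, 3, 4, 3 and 3 risen genes and 4, 0, 3, 2 and 0 fallen ones, where 11.4% of all features rose and 11.2% fell. For untreated TRAMP against wild type 1 gene of the 5 lists rose, Syngr2, and 4 fell, Napb, Erc2, Syngr3 and Scamp5, where 3.73% of all features rose and 2.88% fell.

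**Figure D3:**
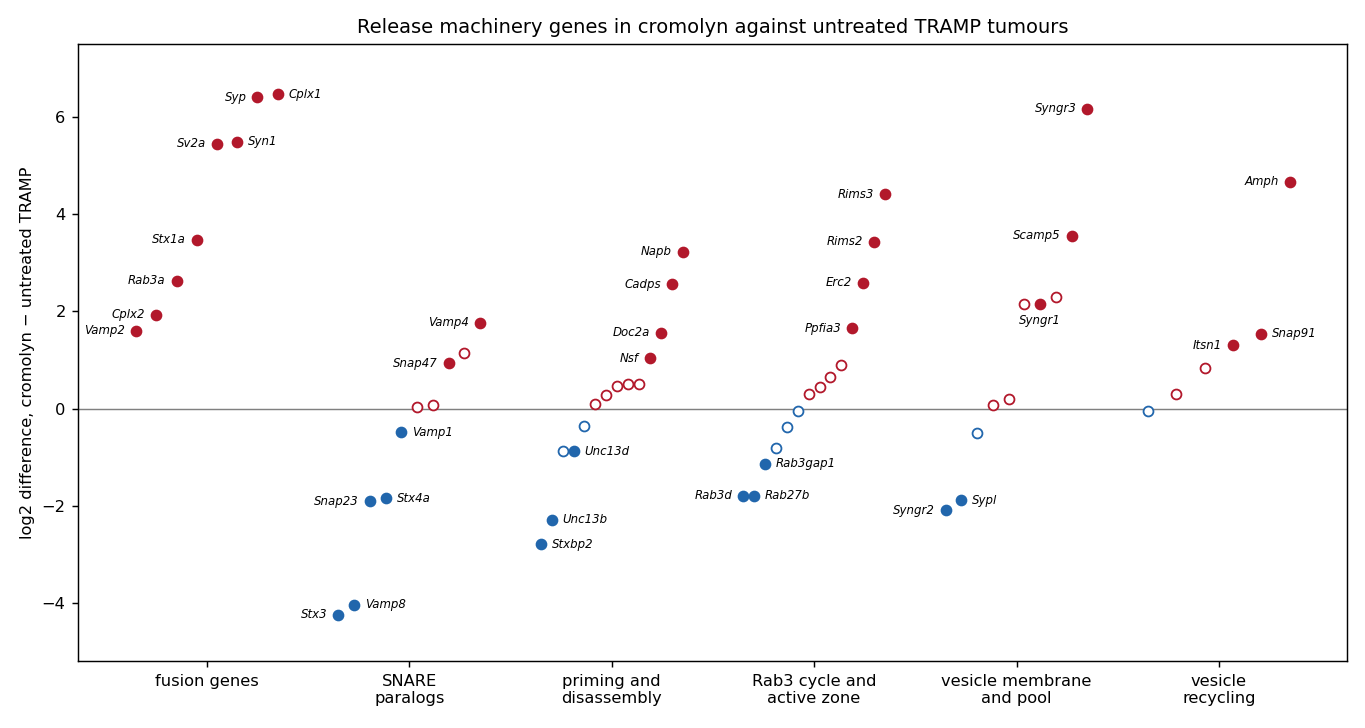
Log2 difference between cromolyn-treated and untreated TRAMP tumours (vertical axis) for the tested genes of the fusion set and of the 5 pathway lists (horizontal axis). Filled and labelled points passed an adjusted p of 0.05, and open points did not. Genes not above background in a group, such as Cplx1 and Syn1, are drawn at their fitted values. All 8 fusion genes lie above 0, while the SNARE paralogs hold both Vamp4 at 1.77 and Stx3 at -4.24.

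Syngr3, a synaptogyrin and thus a relative of synaptophysin, gave 1047.6 and 1040.1 in wild type, 237.8 and 230.9 in untreated TRAMP, 11431.3, 8119.7 and 12919.4 with cromolyn, and 10734.5 with KitW-sh. Its order of groups was that of the fusion genes, with a fall of 2.71 ± 0.25 from wild type to untreated TRAMP (adjusted p = 0.00203, limma) and a rise of 6.17 ± 0.23 with cromolyn (2.36e-05). Scamp5, a secretory carrier protein of neurons, rose by 3.56 ± 0.29 and Syngr1 by 2.15 ± 0.42, the latter with an adjusted p of 0.0688 without the first untreated array. Amph, which encodes amphiphysin of the recycling step, was at least 19.1-fold higher with cromolyn, from 183.8 and 184.3, both under the background limit, to 4070.4, 1304 and 3134.6. The other Amph probes read at most 237.8 and 214.3 on any array. Snap91, a clathrin adaptor of synapses, was at least 2.29-fold higher, and Itsn1, an endocytic scaffold, rose by 1.31 ± 0.19.

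In the active zone, Rims3 rose by 4.41 ± 0.37 and Rims2 by 3.43 ± 0.30, both of the RIM family of active zone proteins. Erc2, an active zone scaffold, was at least 5.63-fold higher and Ppfia3, a liprin, rose by 1.65 ± 0.15. Of the priming and disassembly genes, Napb, the brain form of the SNAP that recycles SNAREs, rose by 3.22 ± 0.18, and Cadps, which primes dense core vesicles, by 2.56 ± 0.33. Nsf, the ATPase that takes the SNARE bundle apart, rose by 1.04 ± 0.14, and Doc2a, a calcium sensor of release, was at least 2.26-fold higher. The Doc2a call was lost without the first (adjusted p = 0.0607, limma) or the second (0.141) untreated array.

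Napb (-1.59 ± 0.20), Scamp5 (-1.69 ± 0.32) and Erc2 (at least 1.80-fold) also fell between wild type and untreated TRAMP. Each of these 3 calls was lost when either untreated array was left out, with adjusted p-values up to 0.0810, 0.173 and 0.270 in limma. The Scamp5 call was also lost without the second wild type array (0.0762), and the Erc2 call without the first (0.143) or second (0.130) wild type array or the first (0.0607) or the third (0.0549) cromolyn array. Cadps did not follow the same pattern, since its untreated values of 950.5 and 967.8 lay above the wild type values of 609.3 and 532.1, a difference of 0.86 ± 0.36 that did not pass (0.235).

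Some neuronal genes, and some genes of other tissues, were far brighter on the second cromolyn array than on the other cromolyn arrays. Syn2, a second synapsin, gave 1081 and 953.9 in wild type, 213.9 and 215.5 in untreated TRAMP, 309.2, 5901.2 and 227.3 with cromolyn, and 222.2 with KitW-sh. Sv2b, a relative of Sv2a, gave 406.8 and 334 in wild type, 421.1 and 467 in untreated TRAMP, 1401.6, 5450.1 and 837.3 with cromolyn, and 1867.4 with KitW-sh, so that all 24-week tumours were brighter than the other arrays. The neurofilament gene Nefh gave 1651.6 and 2305.2 in wild type, 218.6 and 440.6 in untreated TRAMP, 320.2, 7970 and 463.8 with cromolyn, and 903.3 with KitW-sh. The granin Scg2 gave 378.8 and 473.5, 174.3 and 190, 315.3, 10828.8 and 1674.6, and 244.3 in the same order. Outside neurons, Acta1 of skeletal muscle gave 408.4, 1889.7 and 398.3 with cromolyn, and Cdh5 of endothelium 290.5, 1528 and 290.8. The neuroendocrine markers Insm1 (16414.1, 6827.6 and 17332.7) and Chga (3521.5, 1221.1 and 2526.7) were instead lowest on that array among the cromolyn tumours. All of these genes were named after their values were seen. None of the 8 fusion genes was confined to that array, and without it Syp, Cplx1, Syn1, Sv2a, Stx1a, Rab3a, Cplx2 and Vamp2 all remained called against untreated TRAMP.

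Among the SNARE relatives, Vamp4, a vesicle SNARE of the trans-Golgi network, rose by 1.77 ± 0.38 and Snap47, a relative of Snap25, by 0.94 ± 0.20 with cromolyn. Both calls were lost without either untreated array, with adjusted p-values in limma of 0.0615 and 0.0832 for Vamp4 and of 0.0834 and 0.0700 for Snap47. Vamp4 gave 2489.5 and 1882.5 in wild type, 1474.7 and 1277.1 in untreated TRAMP, 6420.3, 2703.5 and 5153.4 with cromolyn, and 3143.2 with KitW-sh. Its log2 levels followed those of Vamp2 over the 8 arrays with a Pearson correlation of 0.989, and whether the 2 probes read separate transcripts was not tested.

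Most of 8 widely expressed counterparts of the fusion genes went the other way, in a list chosen with earlier results of these data known. Other SNARE relatives did not, such as Vamp4, Snap47 and Snap29. The mean log2 level of Snap29 was 11 in untreated TRAMP and 11.04 with cromolyn. Of the 8 counterparts Snap23, Vamp3, Vamp8, Stx3, Stx4a, Stxbp2, Sypl and Rab3d, 7 fell and 0 rose with cromolyn against untreated TRAMP, and their median difference was -1.89, where 18.0% of all features fell and 18.8% rose. All 8 counterparts are also members of the pathway lists above and are counted there too. Stx3, the syntaxin of the apical membrane of epithelia, gave 3393.4 and 2063.9 in wild type, 3998.7 and 3456.9 in untreated TRAMP, 305.4, 249.8 and 287.4 with cromolyn, and 355 with KitW-sh. This was a fall of 4.24 ± 0.26 with cromolyn (adjusted p = 0.000101, limma). Vamp8, the vesicle SNARE of exocrine and endosomal vesicles, gave 7433.2 and 5758, 4404.1 and 4463.3, 257.1, 385.8 and 456.6, and 474.6, a fall of 4.04 ± 0.34 with cromolyn (0.000286).

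Stxbp2, the Munc18 protein that pairs with Stx3, fell by 2.79 ± 0.41, and Snap23, the counterpart of Snap25, by 1.90 ± 0.23, from 3480.4 and 3287.9 to 1247.9, 909.7 and 809.3. Sypl, a relative of Syp, fell by 1.89 ± 0.16, Stx4a by 1.85 ± 0.17 and Rab3d by 1.79 ± 0.20. Vamp3, of recycling endosomes, was the exception, with 5989 and 6190.8 in untreated TRAMP and 7114.7, 5828.1 and 6377.9 with cromolyn, a difference of 0.08 ± 0.18 (0.773). The call of each of the other 7 genes was the same in the alternatives run for this comparison.

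In the KitW-sh tumour 6 of the 8 counterparts fell against untreated TRAMP and 0 rose, with a median of -1.75, where 11.2% of all features fell. Stxbp2, at 3276.2, was the further one not called, with a difference of -1.81 ± 0.55 (adjusted p = 0.0586, limma), which passed without the first (0.0205) or the second (0.0128) cromolyn array. The Snap23 call in this tumour, -1.66 ± 0.31, was lost without the first (0.0663) or the second (0.0574) untreated array. Between untreated TRAMP and wild type 0 of the 8 were called in limma, where 3.73% of all features rose and 2.88% fell, and the differences ran from -0.57 for Vamp8 to 0.51 for Stx3. Against wild type 7 of the 8 were lower with cromolyn and 7 with KitW-sh, where 22.8% and 15.2% of all features were lower, and Vamp3 was called in neither. The Stxbp2 call of the KitW-sh tumour against wild type (-1.85 ± 0.55, adjusted p = 0.0439, limma) was lost without any wild type or untreated array or without the third cromolyn array (0.0703 to 0.129).

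**Figure D4:**
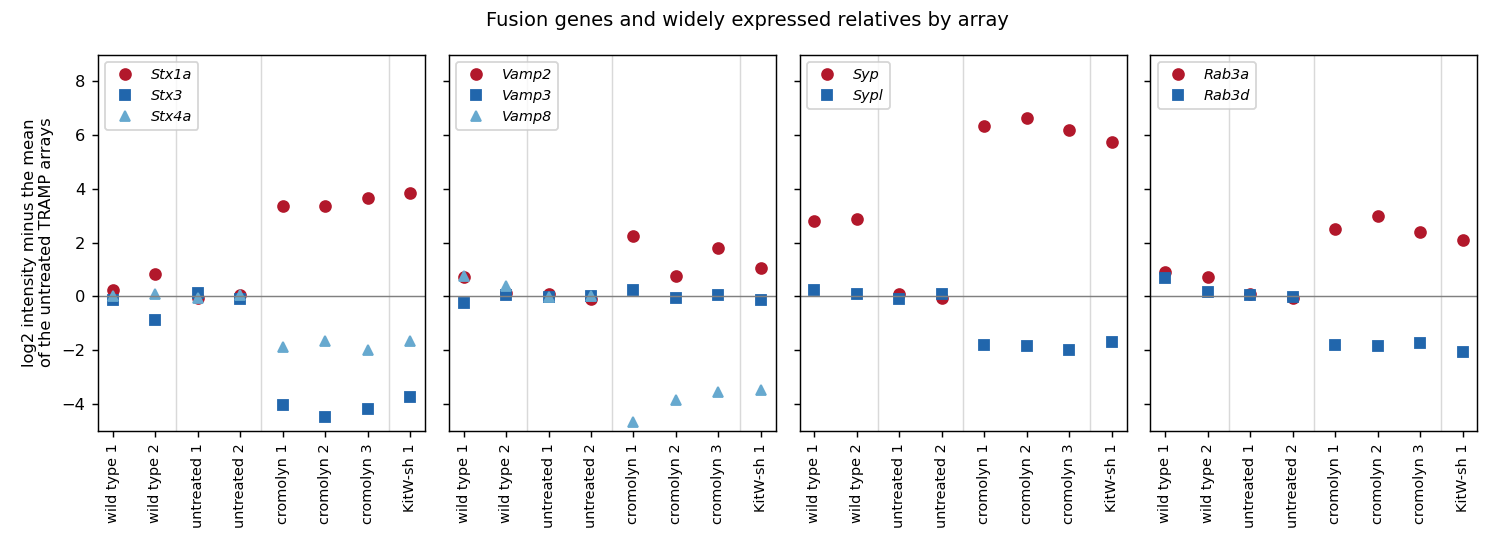
Log2 intensity of 4 fusion genes and their widely expressed relatives on each array, minus the mean of the 2 untreated TRAMP arrays (vertical axis), with the 8 arrays along the horizontal axis. Circles mark the fusion gene and squares and triangles the relatives. On the 4 arrays of 24-week tumours Stx1a, Vamp2, Syp and Rab3a lie above 0 and Stx3, Stx4a, Vamp8, Sypl and Rab3d below it, while Vamp3 stays near 0.

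Unc13b and Unc13d, priming factors found outside the brain as well, also fell with cromolyn, by 2.28 ± 0.68 and 0.87 ± 0.26. Both calls were lost without either untreated array, with adjusted p-values in limma of 0.195 and 0.115 for Unc13b and of 0.0653 and 0.298 for Unc13d. They were also lost without the third cromolyn array (0.104 and 0.104), without the second cromolyn array (0.0632) or either wild type array (0.0586 and 0.0578) for Unc13b, and without the first cromolyn array (0.0851) for Unc13d. Syngr2, the widely expressed synaptogyrin, fell by 2.09 ± 0.20, Rab3gap1, which switches RAB3 off, by 1.13 ± 0.19, and Rab27b, a GTPase of secretory granules, was at least 3.06-fold lower. Syngr2 and Syngr3 thus moved in opposite directions, as did Syp and Sypl. Syngr2 also opposed the fusion genes in untreated tumours against wild type, with a rise of 1.05 ± 0.22 (0.0398) that was lost without any 1 of the 4 arrays compared (0.0967 to 0.286 in limma) and without the first (0.0589) or the third (0.0540) cromolyn array.

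The profiles of the fusion genes were compared over the 8 arrays as a description, since these points form groups and share the arrays. Each gene's log2 levels were scaled to mean 0 and unit variance, and the average over the 8 genes was taken as their common profile. Syp was the closest to it, with a Pearson correlation of 0.995, and Vamp2 the farthest, with 0.839, after Cplx2 with 0.91. Among pairs, Cplx1 and Syn1 were the most alike (0.996) and Vamp2 and Cplx2 the least (0.566). Over all other named genes the 8 with the highest correlation, from 0.997 down to 0.994, were Mapt, Rtn1, Cacng5, Pcsk1n, Tubb4a, Magee1, Tmod2 and Palm. Mapt, which encodes the microtubule protein tau, gave 866.2 and 874.7 in wild type, 222.3 and 242.2 in untreated TRAMP, 12323.3, 10306 and 14331.4 with cromolyn, and 8868.2 with KitW-sh. Rtn1, a reticulon of the endoplasmic reticulum in neuroendocrine cells, rose from 353.3 and 295.7 in untreated TRAMP to 47138.6, 52138.5 and 43284.9 with cromolyn and 54347.3 with KitW-sh.

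Markers of several cell types changed together with the fusion genes in the 24-week tumours, and their part in the differences was not tested. Of 11 neuroendocrine markers, 9 had a probe. On each of the 4 arrays 8 were above background, against 2 on each untreated array and 6 on each wild type array. Their summed intensity was 33384 to 47896 with cromolyn, 51706 with KitW-sh, 1974 to 1990 in untreated TRAMP and 3214 to 3387 in wild type. Pcsk1 was not above background in any group, and Chga and Insm1 were above it in the 24-week tumours only. Peripheral neuron markers summed to 8105 to 14838 with cromolyn, with 5 to 7 of 9 above background, and to 6201 with KitW-sh, with 5. Few bright probes carried these sums, such as Prph with 7458.7 on the first cromolyn array and Nefh with 7970 on the second. The median log2 difference of the tested neuron markers from wild type was -0.40 with cromolyn and -0.79 with KitW-sh. With genes at their bounds these medians were -0.32 and -0.60. Th and Dbh were at background in the KitW-sh tumour. Among the cromolyn arrays they were above it on the second only, at 227.9 and 332.8. Hand2 and Nefl were at background on all 24-week arrays. Of 5 Schwann cell markers with a probe, S100b and Cdh19 were above background on no array, and the sum was 2432 to 3721 with cromolyn against 3467 to 3622 in untreated TRAMP.

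The labelled tissue was checked against luminal epithelium markers, of which 5 of 8 had a probe. They summed to 37689 to 49553 in wild type and 64098 to 70241 in untreated TRAMP, but to 897 to 3216 with cromolyn, where 0 to 5 of the 5 were above background, and to 4092 with KitW-sh. Smooth muscle markers summed to 165281 to 178817, 115419 to 145879, 4658 to 10563 and 16195 in the same order. Of 5 mast cell markers with a probe, none was above background in the 24-week tumours, 3 to 5 were in untreated TRAMP and 4 to 5 in wild type. Over the 13072 features tested, the correlation of log2 levels was 0.931 to 0.975 among the 24-week tumours and 0.772 to 0.797 between cromolyn and untreated arrays. The fusion genes are thus part of a wide difference between these groups.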

How the data were processed

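The deposited intensity of 25697 Illumina beadchip probes in 8 prostate samples was used, on a linear scale. The submitters' processing notes name BeadStudio, with no version. Sorted log2 values differed between arrays by 0.0489 at most, and the lowest intensity was 123.8, so the authors' values are taken as quantile normalized without background subtraction. A further table of 8 signal and 8 detection p-value columns carries slide positions that no label ties to samples, and was not used here.

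Intensities were background-corrected by normexp in limma (offset 50), quantile normalized and log2 transformed. The dim side of the intensities gave a background mode of 181 and an SD of 15.2, and a share of 0.01 of that background exceeds the limit of 216. The limit replaced the planned filter on detection p-values. The probes above it on at least 1 array numbered 18063, and 14535 to 14556 on each array. The brightest probe stood for each gene, which left 13072 features (11987 genes and 1085 unnamed probes). Of the probes, 23978 had 1 gene name and 1719 none, and 23962 were matched to the RefSeq table of GRCm38.p6.

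Each group had its own mean in a single limma fit of the 8 arrays (limma 3.58.1, R 4.3.3), with 4 residual degrees of freedom and a prior of 2.62. P-values are two-sided and adjusted by Benjamini and Hochberg over all features in each of 6 comparisons, with a threshold of 0.05. The limma fit was tested on simulated log2 values, and the steps before it were not. The members and gene lists were chosen with earlier results of these data known. Named were all members, the 8 counterparts, up to 4 called genes of each pathway list and direction with the smallest p in cromolyn against untreated TRAMP (2 in other comparisons), and the 8 nearest profiles. Promoter sequences are from RefSeq, GRCm38.p6. The number of arrays limits the precision.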

Additional observations from a re-analysis of the deposited data

How the results depend on the processing

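Over 18 alternatives (17 where the KitW-sh array is needed) no called difference reversed. Of the 48 differences of the fusion genes, 38 kept their call and 10 changed it in at least 1. The alternatives were normexp with offset 16, no background correction, cyclic loess, centring, 2 other filters, the mean of a gene's probes, only the groups compared, an intensity trend, the replicate number as a block, and each array left out. The number of fusion genes called was 3 to 5 lower in untreated TRAMP against wild type, 6 to 8 higher with cromolyn and 6 to 8 with KitW-sh against untreated TRAMP, 6 to 8 and 5 to 7 higher against wild type, and 0 between KitW-sh and cromolyn. Pooling the spread decides some calls. With only the groups compared, Vamp2 passed with KitW-sh against untreated TRAMP (adjusted p = 0.00698, limma), Rab3a in untreated TRAMP against wild type (0.0447) and Cplx2 with KitW-sh against wild type (0.0376).

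Same-numbered arrays did not deviate together, with correlations of 0.05, 0.07 and 0.01 between the groups, so the numbers are not taken as pairs. With the replicate number as a block, Sv2a in untreated TRAMP against wild type (adjusted p = 0.0533, limma), Cplx2 with KitW-sh against untreated TRAMP (0.0852) and Rab3a with KitW-sh against wild type (0.0534) missed the threshold, and the count of lower fusion genes in untreated TRAMP was 3. The block changed no other call of a fusion gene.

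Counts over all features moved more. For untreated TRAMP against wild type, 487 rose and 377 fell, which became 799 and 669 with only the groups compared, 244 and 174 with the block, and 106 to 283 risen with an array of either group left out, while 96 to 607 fell over the left-out arrays. For cromolyn against untreated TRAMP the 2464 risen and 2358 fallen became 1116 to 1150 and 1311 to 1338 without an untreated array. For KitW-sh against untreated TRAMP 1486 and 1463 became 3167 and 3037, 892 and 975, and 565 to 569 and 635 to 645 in the same settings. The 2999 risen with cromolyn against wild type became 1970 without the second wild type array. For KitW-sh against cromolyn 3 rose and 0 fell, with 0 to 24 and 0 to 10 over the alternatives. Cplx1 and Syn1 were not above background in untreated TRAMP, so their folds against it are bounds.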
